A study of Mus musculus with 8 samples.

Results

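Pakap is a long mouse gene on chromosome 4 that encodes paralemmin and A-kinase anchoring protein sequences. RefSeq places it on the plus strand from 57434475 to 57896984 of GRCm38, a span of 462.51 kb. The study profiled H3K27me3, trimethylation of lysine 27 on histone H3, in mouse 3T3 fibroblasts by chromatin immunoprecipitation and sequencing. Its deposited table lists 265968 regions, and every region that overlaps the gene or the 2 kb on either side of it was taken. There were 224 of these, or 0.0842% of the table. The gene was chosen by these same region values, since all of its regions differ in one direction, so the direction and size of that difference are given below as a description, with no test.

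The labels describe 3T3, an established fibroblast line, carrying either a control construct or a construct that overexpresses NNMT, nicotinamide N-methyltransferase. NNMT uses the methyl donor S-adenosylmethionine, which cells make from methionine. Both kinds of cells were kept for 48 h in medium set to 10 µM methionine with 10% dialyzed serum, then fixed with 1% formaldehyde and cut with micrococcal nuclease, and the antibody was clone C36B11. Each construct has 3 immunoprecipitated libraries, called biological replicates, and 1 input library. The labels name neither the promoter that drives the construct nor a number of clones.

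Each region carries 6 whole numbers in 2 sets of 3 libraries. Nothing in the table ties either set to a construct or says how its libraries are ordered. They are called set 1 for the first in the table and set 2 for the other, and no direction with respect to NNMT can be read from any value here. The whole-number values are most likely read counts after rescaling, and the depth of the libraries is unknown. Over the whole table the libraries sum to between 35565866 and 41971892, and the ratio of set 1 to set 2 is 1.14. The 2 input libraries were not analysed here, so the amount of DNA and the level of the mark cannot be told apart at this gene. A stretch with no listed region has no value in either set, which says nothing about its level.

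H3K27me3 is laid down by Polycomb repressive complex 2 and marks chromatin of repressed genes, often as broad domains that cover promoters and gene bodies. Paralemmins are lipid-anchored proteins of the plasma membrane. A-kinase anchoring proteins bind the regulatory subunits of protein kinase A and hold the enzyme at chosen places in the cell. The older names Palm2 and Akap2 refer to parts of the fused Pakap gene, which has several start sites.

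RefSeq gives Pakap 5 start-site windows of 300 bases, each with 250 bases before and 50 from the start. The windows of start sites 1, 3 and 4 are shown because the first opens the gene, the third precedes the part where listed regions grow sparse, and the fourth lies where none is listed. They are from RefSeq, build GRCm38.p6, in lower case with each CG dinucleotide in capitals.

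Pakap start site 1, chr4:57434225-57434524, plus strand: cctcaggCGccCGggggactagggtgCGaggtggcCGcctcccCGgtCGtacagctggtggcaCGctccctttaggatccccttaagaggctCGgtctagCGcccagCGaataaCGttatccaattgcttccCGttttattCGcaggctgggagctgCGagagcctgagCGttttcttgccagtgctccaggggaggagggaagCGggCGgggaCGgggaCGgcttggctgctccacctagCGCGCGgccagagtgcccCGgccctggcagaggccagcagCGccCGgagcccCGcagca

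Pakap start site 3, chr4:57567998-57568297, plus strand: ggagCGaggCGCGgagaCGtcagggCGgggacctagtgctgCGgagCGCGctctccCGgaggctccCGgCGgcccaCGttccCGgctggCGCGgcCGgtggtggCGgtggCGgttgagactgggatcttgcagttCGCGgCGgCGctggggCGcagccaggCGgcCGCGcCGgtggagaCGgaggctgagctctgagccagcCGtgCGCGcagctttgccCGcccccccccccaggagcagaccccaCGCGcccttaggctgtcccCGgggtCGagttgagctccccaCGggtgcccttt

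Pakap start site 4, chr4:57844998-57845297, plus strand: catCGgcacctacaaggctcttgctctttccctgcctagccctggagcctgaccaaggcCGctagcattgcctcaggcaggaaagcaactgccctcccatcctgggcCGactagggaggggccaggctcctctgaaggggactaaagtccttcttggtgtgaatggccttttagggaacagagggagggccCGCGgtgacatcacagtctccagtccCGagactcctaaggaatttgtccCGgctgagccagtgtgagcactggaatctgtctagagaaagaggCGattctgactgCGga

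The window of start site 1 holds 26 CG dinucleotides and is 67.7% G or C, and 16.9% of the 32851 mouse windows in the RefSeq table hold as many. Start site 3, which lies 133.773 kb into the gene, has 37, a number reached by 5.58% of windows. Start site 4 has 9, reached by 45.8%. The median window has 7, and 94.6% hold at least 1. Start site 2, at 57567830, has 12 and lies close before start site 3, while start site 5, at 57854562, has 3. CG was searched on one strand, since it reads the same on both. The first and the third start site therefore sit in stretches much richer in CG than most, and the fourth does not.

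Every one of the 224 Pakap regions had a higher sum in set 1, where 59.5% of all regions in the table do. Summed over them, the set 1 libraries gave 25035, 23789 and 23854, and the set 2 libraries gave 2466, 2374 and 2853. The lowest set 1 library was far above the highest set 2 library, and the ratio of the means was 9.45, with a range of 8.34 to 10.5 over the 9 pairs of one library from each set. That is a log2 ratio of 3.24. Per kb of listed sequence the mean value was 246 in set 1 and 26.1 in set 2, over 98.5 kb. With a flank of 5 kb in place of 2 kb, 2 more regions upstream entered, each counted whole, and the ratio was 5.31. Among these is a block of 15.5 kb, 57414151 to 57429650, most of which lies outside that flank.

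All 3 libraries of set 1 lay above all 3 of set 2 in 222 of the 224 regions, against 40.5% of regions in the table. In 224 the log2 ratio, with 1 added to each summed value, was at least 1, which 22.3% of the table reached. In 217 it was at least 2, which 5.11% reached. These counts use the same values that picked the gene, so they describe it and support nothing. The median region log2 ratio was 4.44, above the 3.24 of the sums. The sums weight each region by its size, and the 3 regions at the start of the gene are each longer than 1000 bp.

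Both regions in which the sets overlapped have at least 1 library far from its set. Region 57447401 to 57447500 had values of 16, 13 and 22 in set 1, against 0, 0 and 13 in set 2. Region 57513851 to 57514200 had 81, 20 and 107 in set 1, against 22, 3 and 7 in set 2. In the first the set 2 library given last was high. In the second the set 1 library listed second was low and the set 2 library listed first was high for its set.

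Per kb of listed sequence, set 2 had its highest values at the start of the gene, and the ratio of the sets was larger deeper in it. In consecutive bins of 25 kb from start site 1, set 1 had mean values per kb of 246, 238, 232, 267, 242, 248, 229 and 232. In the same bins set 2 had 72.2, 23.6, 14.5, 16.6, 5.63, 3.95, 6.72 and 5.60. The ratio of the sets was thus 3.40 (pair range 3.18 to 3.63) in the first 25 kb and 62.7 (45.7 to 143) between 125 and 150 kb. The listed share was 68.2% in the first bin and 78.4% between 75 and 100 kb, then went down to 11.2% between 175 and 200 kb. Across the 224 regions, Spearman's rho between position and the value per kb was -0.41 for set 2 and -0.12 for set 1. These are descriptions, since neighbouring regions share libraries and chromatin.

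The evenness of set 1 per listed kb cannot be read as an even level along the gene, since only listed sequence enters it. The same limit applies to the lower set 2 values and larger ratios deeper in the gene. The median region length was 300 bp in the first 25 kb and 100 bp between 175 and 200 kb. Set 2 had 7.04 per kb in regions of 50 bp and 37.0 in those of 1000 bp or more. How much of the change along the gene goes with region length was not tested. Of the 222 regions of 50 bp in the table with set 2 at 0 throughout, none had a summed set 1 value under 31, and the 29 of these in Pakap had 31 to 35. Summed over a bin, the set 1 libraries had 4294, 4267 and 4003 in the first 25 kb and 668, 605 and 677 between 175 and 200 kb. The set 2 libraries had 1183, 1258 and 1253 in the first and 19, 10 and 18 in the last of these bins. Both sets thus had smaller sums deeper in the gene, and the listed sequence went from 17.1 to 2.80 kb.

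**Figure D1:**
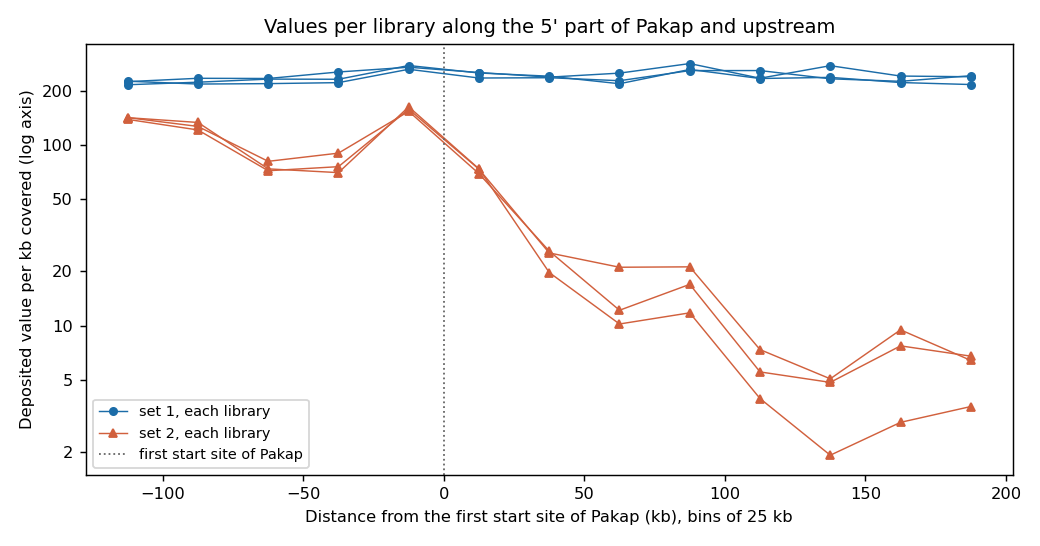
Deposited value per kb of listed sequence (log axis) in 25 kb bins against distance from the first start site of Pakap in kb. Each line is 1 library, with circles for set 1 and triangles for set 2. Set 1 libraries stay between 216 and 282 along the gene, whereas set 2 goes from 158 just upstream to between 1.92 and 9.49 beyond 100 kb.

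The set 2 library listed second had the lowest value of the 3 in every bin from 25 to 200 kb. In the first 25 kb it had the highest, with set 2 values of 69.4, 73.8 and 73.5 per kb. Between 125 and 150 kb, for example, the set 2 libraries had 4.86, 1.92 and 5.08 per kb, and the set 1 libraries had 275, 237 and 232. The same library had the largest summed value of set 2 over the whole table, 36958436. Its lower values beyond the first 25 kb of Pakap were therefore not matched by a lower total.

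The regions nearest the start of the gene were the least different. The first region, 57432151 to 57434400, had values of 618, 647 and 645 in set 1, against 195, 343 and 302 in set 2, a ratio of 2.27 (pair range 1.80 to 3.32). The second, 57434651 to 57438550, had 1075, 1041 and 1096 against 448, 442 and 469. The third, 57438851 to 57445800, had 1676, 1753 and 1474 against 571, 698 and 585. In none of these do the sets overlap, and the lowest set 2 value among them was 195. Together they had 255 per kb in set 1 and 103 in set 2, a ratio of 2.47 (2.17 to 2.83).

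The other 221 regions had 245 per kb in set 1 and 14.2 in set 2, a ratio of 17.2 (13.6 to 24.3). This division after the third region was made after the values were seen. The longest region, 57515251 to 57523100, covers 7.85 kb and had 2325, 2309 and 2125 in set 1, against 138, 113 and 168 in set 2. Region 57528401 to 57531550 had 969, 866 and 839 against 72, 35 and 89. Region 57546551 to 57550100 had 868, 940 and 984 against 16, 21 and 19. In these long blocks the ratio went from 16.1 and 13.6 to 49.9 with distance from the start.

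Among regions with a summed value of at least 100, of which Pakap has 115, the smallest ratios belonged to the first 3 regions and to a pair of short ones. Region 57448551 to 57448800 had 51, 39 and 43 in set 1, against 13, 13 and 15 in set 2. Region 57510151 to 57510300 had 40, 29 and 28 against 19, 2 and 3, so a single set 2 library raised the mean there.

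The largest ratios belonged to regions where set 2 was listed at 0 in every library, so no fold is given. Region 57563401 to 57564000 had 157, 118 and 155 in set 1. Region 57545901 to 57546450 had 148, 123 and 132, and region 57551451 to 57551850 had 115, 85 and 84. All lie more than 100 kb into the gene. The other 2 were 57571901 to 57572200, with 93, 64 and 71, and 57523151 to 57523450, with 100, 46 and 64.

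**Figure D2:**
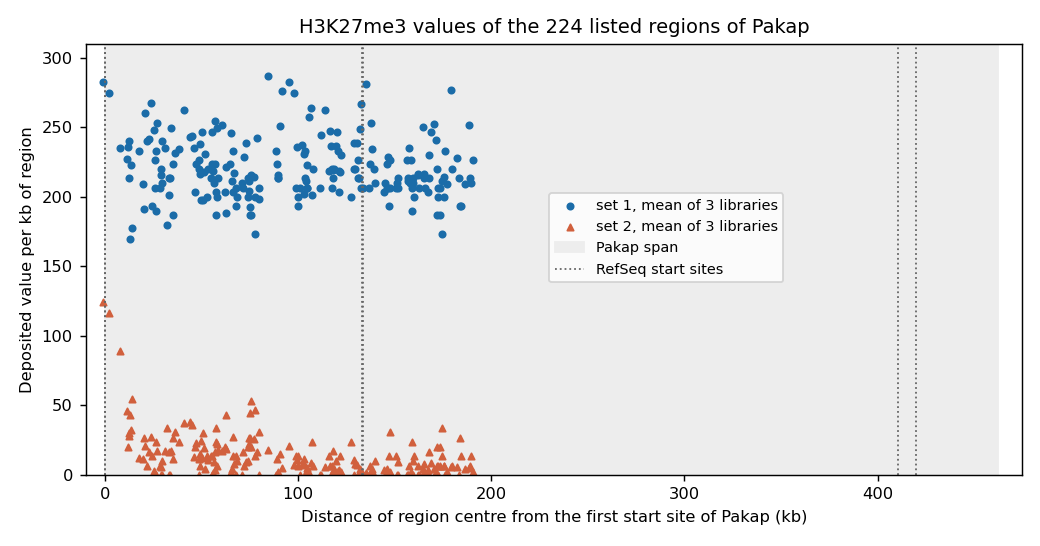
Mean deposited value per kb of each listed Pakap region (vertical axis) against distance from the first start site in kb, with the gene shaded and start sites as dotted lines. Each point is the mean of 3 libraries, circles for set 1 and triangles for set 2. Among listed regions set 1 stays high up to the last one at 190.675 kb and set 2 drops. Unlisted sequence has no value, so this is not the level along the whole gene. No region is listed over the remaining 271.834 kb.

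Values of 0 in set 2 were common inside the gene. All 3 set 2 libraries were at 0 in 55 of the 224 regions, and this was the case for 0.127% of all regions in the table. In 62 more regions 2 libraries were at 0, in 52 only 1 was, and in 55 none was. By library, set 2 was at 0 in 103, 139 and 99 regions, whereas no set 1 library was at 0 in any. The 339 regions of the table with set 2 at 0 throughout thus had 16.2% of their number in this gene, and 86 regions had set 1 at 0 throughout. These shares compare regions of unlike length, since the median was 150 bp in Pakap and 450 bp in the table. The gene was chosen for having every region higher in set 1, so none could have set 1 at 0 throughout. A region with set 2 at 0 throughout can be listed only through its set 1 values. The counts of zeros thus describe the gene and support nothing.

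The all-zero regions were mostly short, and more of them lay beyond 100 kb than before it. Their median length was 50 bp, with a range of 50 to 600 bp, and 2 were 500 bp or longer. The first began 25.8 kb after start site 1. Of the 113 regions from 100 kb onward 39 were all-zero, against 16 of the 111 before. Set 1 values in them ran from 5 to 157. Depth and length go together here, since the median region was 200 bp in the first 100 kb and 100 bp in the next. Of the 54 regions of 50 bp 29 were all-zero, against 0 of the 23 of 1000 bp or more. How much of the difference with depth goes with length was not tested. A short region can hold few reads in any library, so the zeros of 50 bp regions carry less than those of the regions over 500 bp.

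Set 1 was higher in every length class, which the choice of the gene had already fixed. The ratios of the short classes also depend on which short regions were listed, so they describe the listed regions only. The 54 regions of 50 bp had a ratio of 29.3, the 124 of 100 to 450 bp had 18.3, and the 23 of 500 to 850 bp had 20.7. The 23 regions of 1000 bp or more, which carry 60.2% of the set 1 values, had 7.04. The longest class had the smallest ratio, and it holds the first 3 regions.

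None of the 5 start sites lies inside a listed region. Start site 1 falls between the first and second regions, 75 bp after the one and 176 bp before the other. Start site 3 falls 598 bp after one region and 3 bp before the next. The next region overlaps the last 47 bp of its window, so most of that CG-rich window is not listed. From start site 1 to start site 2 there were 155 regions covering 60.9% of the sequence, with 246 per kb in set 1 and 27.2 in set 2, a ratio of 9.07 (8.09 to 10.3).

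Beyond start site 2 there were 68 regions covering 26.3% of the sequence up to the last one, and in all 68 the sets were separated. There the set 1 libraries had 255, 227 and 233 per kb and the set 2 libraries had 6.11, 2.06 and 7.64. The ratio was 45.2 (29.7 to 124), with a wide range because the set 2 values are so low. The last listed region, 57624851 to 57625150, had 62, 51 and 91 in set 1, against 2, 0 and 0 in set 2.

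The remaining 271.834 kb of the gene, 58.8% of its span, holds no listed region, and start sites 4 and 5 lie in it, 410.773 and 420.087 kb from the first. Up to the last region the longest gap was 4.95 kb, and 51.0% of that 193 kb stretch was listed. The next region on the chromosome, 57914851 to 57914900, came 17.867 kb after the gene's end. Its libraries gave 7, 9 and 8 in set 1, against 2, 4 and 1 in set 2. The listed part of Pakap thus thins out and ends well short of the gene's 3' end.

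The genes annotated inside Pakap share its regions. The noncoding RNA Gm52699 spans 6 regions, with sums of 177, 160 and 116 in set 1, against 6, 2 and 6 in set 2. The pseudogene Gm12539 spans 3. Gm35099 and Gm26138 hold none. These values are a portion of those of Pakap and add nothing to them.

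The surroundings were also higher in set 1, but far less so. Within 2 Mb on either side, Pakap left out, 576 regions were listed, of which 550, or 95.5%, were higher in set 1 and 430 were separated. Their ratio was 1.57 (1.52 to 1.62), with 242 per kb in set 1 and 154 in set 2. The log2 ratio of Pakap exceeded that of its surroundings by 2.59, with a range of 2.40 to 2.70 over the 9 library pairs. These levels cover listed sequence only, so they do not give the level of either set over the whole stretch. The 26 neighbouring regions higher in set 2 had a ratio of set 1 to set 2 of 0.783.

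**Figure D3:**
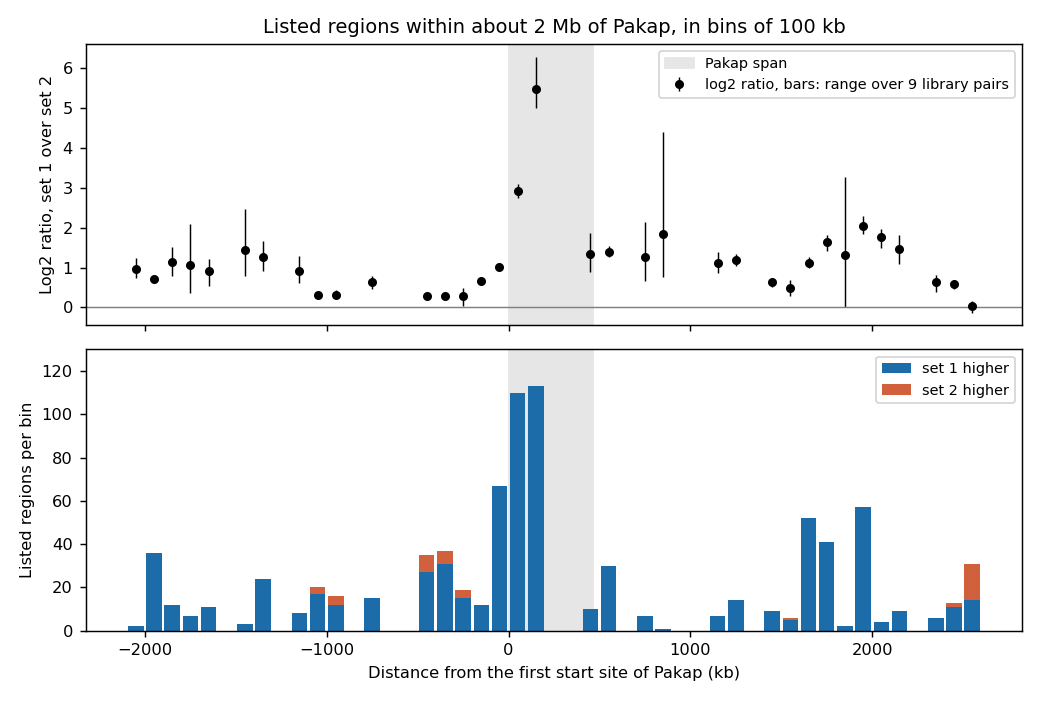
Log2 ratio of set 1 to set 2 (upper panel) and number of listed regions (lower panel) in 100 kb bins against distance in kb from the first start site of Pakap. The upper bars are ranges over the 9 library pairs, and the lower colours give which set is higher. Ratios peak inside Pakap, where the sum over the gene is 3.24, against 0.65 for its surroundings.

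The downstream side differed more than the upstream side. Upstream, 296 of 321 regions were higher in set 1, with a ratio of 1.40 (1.35 to 1.46). Downstream it was 254 of 255, with a ratio of 2.23 (2.12 to 2.41). Just before the gene, region 57429851 to 57431900, which lies 575 bp outside the window used, had 537, 586 and 459 against 186, 174 and 204. Before that a block of 15.5 kb, 57414151 to 57429650, had 4448, 4472 and 4319 against 2705, 2855 and 2660, a ratio of 1.61. The 61 regions between Ptpn3 and Pakap were all higher in set 1, with a ratio of 2.04 (1.93 to 2.15). In 25 kb bins set 2 had 75.7 and 78.8 per listed kb between 75 and 25 kb upstream and 158 in the last 25 kb, and in the first 25 kb of the gene it had 72.2. Its values therefore varied upstream as well. In these bins the 72.2 lay just below the lowest of the upstream values, and the later bins of the gene had at most 23.6. That order depends on bin size. In bins of 10 kb from 50 kb upstream to the gene, set 2 had 48.4, 80.0, 138, 177 and 109 per listed kb. In the next bins, inside the gene, it had 98.7 and then 33.2. Within 100 kb upstream, 2 of 67 regions had set 2 at 0 throughout.

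Pakap lay in a run of 386 consecutive regions that were all higher in set 1, from 57182301 to 58943950. Pakap gave 224 of them, with 81 before and 81 after it. It was the 22nd longest of 52055 such runs in the table, the longest having 1456 regions. The run ended upstream at a region with 163, 116 and 98 in set 1, against 147, 167 and 174 in set 2. Downstream it ended at one with 50, 68 and 52 against 80, 69 and 85. Over all of chromosome 4, 12922 of 15018 regions were higher in set 1, with a ratio of 1.53.

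Nearby genes with at least 3 regions followed the same sides. Ptpn3, a protein tyrosine phosphatase gene, had 19 regions, all higher in set 1, with a ratio of 1.56. Epb41l4b, which encodes a FERM-domain protein, had 50 of 63 higher in set 1 and a ratio of 1.21, and Frrs1l, for a protein of AMPA receptor assembly, 12 of 14 and 1.27. Downstream, Txndc8, a thioredoxin gene of the germ line, had a ratio of 2.62 over 22 regions. The meiotic gene Shoc1 had 2.18 over 60. Susd1, a sushi-domain gene 1417.22 kb past the end of Pakap, had the largest ratio among the protein-coding neighbours, 4.01 (3.63 to 4.75), over 60 regions. The genes D630039A03Rik, with 6 regions, and Zkscan16, a zinc finger gene with 4, had 2.85 and 1.30. None of these came near the 9.45 of Pakap.

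The noncoding neighbours spread over a like range, but not all are separate from the protein-coding ones. Gm35527 lies inside Shoc1, and Gm42293 overlaps D630039A03Rik once the flanks of 2 kb are added, so they share regions. Gm34802 and Gm12530 had 1.11 and 1.21, Gm34628 had 1.31 and Gm34687 had 1.57. Gm42292, Gm42291, 1700042G15Rik and Gm12506 had 1.97, 2.03, 2.17 and 2.21. Gm42293 and Gm35527 had 2.90 and 3.25. In all of these set 1 was the higher.

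Among the 5242 genes with at least 5 regions and 5 kb of listed sequence, Pakap ranked 4th by log2 ratio, and the median of these genes was 0.29. Ptpn5, a tyrosine phosphatase gene known from brain, had a ratio of 14.0 over 26 regions, and Galnt9, a glycosyltransferase gene, 13.9 over 53. The noncoding Gm12236, which lies inside the gene Glra1 and shares its regions, had 10.7 over 16. The pair ranges of 9.01 to 20.2 for Ptpn5 and 7.22 to 20.7 for Gm12236 overlap the 8.34 to 10.5 of Pakap, as do those of S100a16 and Mylk just below it, so the order among them is not clear. Every pair of Galnt9 libraries lay above that range. Pakap ranked 22nd by number of regions. Of the 178 genes with at least 100 regions, 21 had all of them higher in set 1. Pakap also had the most all-zero regions of any gene, 55 of 224, followed by Mylk with 23 of 221, Glra1 with 8 of 92 and Galnt9 with 6 of 53. This order is by count and not by share, and the genes differ in number of regions.

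The genes whose 6 library sums, on a centred log2 scale, lay nearest to those of Pakap were Mylk, S100a16, Hsf2bp, Glra1 and Cdx1, at Euclidean distances of 0.0854, 0.253, 0.388, 0.605 and 0.670. Likeness was measured over 6 libraries. Mylk, which encodes myosin light chain kinase, had 221 regions, with sums of 10769, 10732 and 10122 in set 1, against 1096, 1022 and 1285 in set 2. Its ratio of 9.29 (7.88 to 10.5) covers nearly the range of Pakap. S100a16, for a calcium-binding protein, had 9.32 over 14 regions. Hsf2bp, a meiotic gene, had 7.77, the glycine receptor gene Glra1 had 6.99, and the homeobox gene Cdx1 had pair values from 6.39 to 8.09. Likeness of this kind reflects mainly the size of the ratio.

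**Figure D4:**
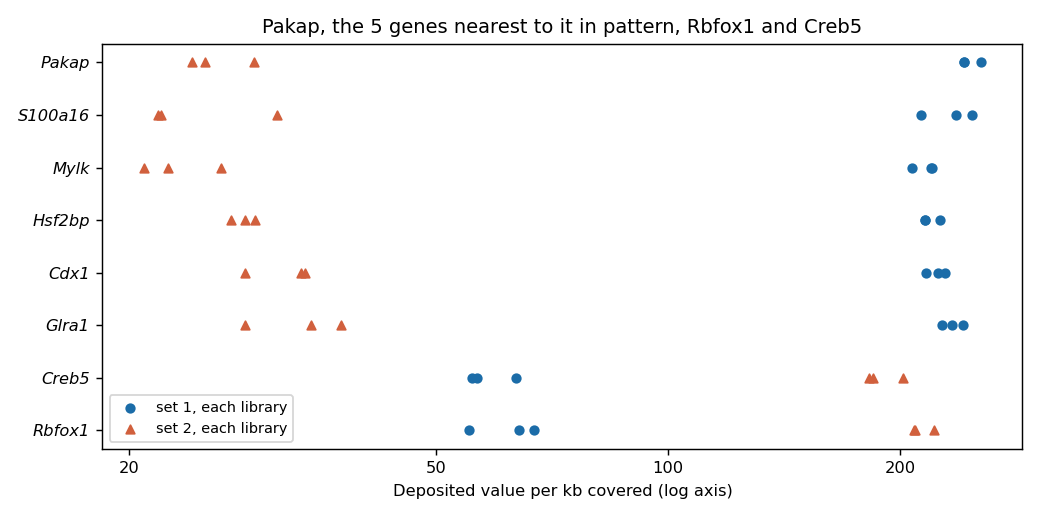
Deposited value per kb of listed sequence (log axis) in each library for Pakap, the 5 genes nearest to it in pattern, and Rbfox1 and Creb5. Circles are set 1 and triangles set 2. In Pakap and the 5 like genes every set 1 library is above 200 and every set 2 library below 40, and in Rbfox1 and Creb5 the order is opposite.

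Rbfox1 and Creb5, long genes in which every region was higher in set 2, show the opposite side. Rbfox1, an RNA-binding splicing regulator, had 428 regions with a log2 ratio of -1.78, and Creb5, a transcription factor of the CREB family, 181 with -1.69. Both differed by less than Pakap in size.

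Of the genes related by function, 40 for A-kinase anchoring proteins, paralemmins and subunits or inhibitors of protein kinase A were looked up, and all 40 matched. The list was put together with earlier results of these data known. A region was found in 9 of them, or 22.5%, against 35.3% of all 34627 genes with coordinates. In 6 the sums were higher in set 1 and in 3 in set 2. Over all genes with a region, 8359, or 68.3%, were higher in set 1. The list had a median log2 ratio of 0.20, beside 0.37 over all genes with a region. Pakap was not in the list.

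Of the anchoring proteins, Akap6, which is found at the nuclear envelope of muscle cells, had all 70 of its regions higher in set 1 and a ratio of 2.65 (2.15 to 3.07). Its libraries summed to 2652, 2827 and 3045 in set 1, against 991, 994 and 1233 in set 2. Akap12 had 1 short region, with 18, 14 and 16 against 1, 5 and 8. Ezr, for ezrin, and Cbfa2t3, a corepressor gene, had ratios of 1.11 and 1.17, and Rab32 had 1.72 from 1 region. Akap3 and Myrip, higher in set 2, had log2 ratios of -0.10 and -0.12, and their pair ranges of the ratio were 0.861 to 1.03 and 0.849 to 0.965. For Akap3 that range includes 1. Of the kinase itself, Prkar1b, a regulatory subunit, had 1.15 (1.07 to 1.21), and Pkib, an inhibitor of the catalytic subunit, had 0.695 (0.618 to 0.815), higher in set 2.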

How the data were processed

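H3K27me3 was profiled in 3 immunoprecipitated libraries per construct, with 1 input library each. Per the submitters' processing notes, the tools included CASAVA, Trimmomatic 0.36 and BWA 0.7.17, with build GRCm38, and neither the region caller nor the scaling is stated there. The authors deposited 1 table of 265968 regions with 6 whole-number values each. They are treated as an authors' value per library and as no count model, because depth is unknown. The −log10 p of the deposited table was not used except in an alternative that keeps regions with p below 0.05.

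Values were summed over regions, divided by listed kb, and given as the ratio of the means of set 1 and set 2. Errors are the range over the 9 pairs of 1 library from each set. Region log2 ratios used a pseudocount of 1. No test was run, since the gene was chosen by these same values. The sets also cannot be tied to constructs. The labels call the libraries biological replicates.

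Named were Pakap regions at the ends, the 5 longest and the 5 with the largest and smallest ratios (summed value of at least 100), neighbours within 2 Mb with at least 3 regions, the 5 most similar genes, Rbfox1, Creb5, and members of the fixed list. Genes, members and lists were chosen with earlier results of these data known. Overlap and sums were tested on simulated data. Python 3.11.15, numpy 2.4.6, pandas 2.3.3 and scipy 1.17.1 were used.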

Additional observations from a re-analysis of the deposited data

How the results depend on the processing

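Of 95 values recomputed under 18 other settings, 72 stayed within 1 SD over library pairs (for the number of regions and the run, within 1.5 times), 23 moved more and none of the log2 ratios changed sign. For the share of separated regions, the SD used was that of the share of regions higher in set 1, taken over library pairs. The log2 ratio of Pakap was 3.37 over the gene span alone, 2.41 with a flank of 5 kb (2 more upstream regions, and the difference from the surroundings then 1.76), 3.05 with the sets rescaled to equal sums (by 1.14, a log2 shift of 0.19, with the surroundings at 0.46) and 3.78 without the 5 regions of largest summed value (difference 3.13). As a median of regions it was 4.44, that of the surroundings was 1.26 and the difference was 3.18. The surroundings within 1 Mb had a log2 ratio of 0.51, a difference of 2.73 and 91.9% of regions higher in set 1, and within 5 Mb 0.51, 2.73 and 79.9%. With regions of authors' p below 0.05 that share was 97.0% and the run had 521 regions in place of 386, and with a summed value of at least 100 it was 93.9%, with 115 Pakap regions and a run of 224. Leaving out each library in turn gave between 99.1% and 100% of Pakap regions separated. The share of set 1 higher in Pakap was 100% in each setting under which it was computed. The values carry no depth, so counting error is unknown. No paired analysis was possible because the table does not say which library is which.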
